A study of Mus musculus with 12 samples.

Results

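The clonotypes described here carry a TCRα V segment named TRAV16, TRAV17, TRAV18, TRAV19 or TRAV21. They were found as the rows whose V name matched one of these numbers and whose CDR3, the hypervariable loop at the V to J junction, was in frame and without a stop. A clonotype was 1 combination of V name, CDR3 amino acid sequence and J name, and 896 of the 20615 in-frame clonotypes matched, with 8896 of the 190549 in-frame UMIs (4.67%). A UMI, the random tag given to each Tcra mRNA during cDNA synthesis, stands for 1 mRNA molecule, so more cells of a clonotype and more Tcra mRNA per cell cannot be told apart.

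The 12 libraries came from newly developed regulatory T lymphocytes (Treg), sorted as CD4+CD8−Thy1.1+GFP+ thymocytes at 100000 cells per mouse, of 4 wt, 4 Il2° and 4 Il15° individual B6 mice aged 3 weeks. Il2° mice lack IL-2 and Il15° mice lack IL-15, while wt mice carry both cytokines. All mice of the 3 genotypes also carried the Rag2-Gfp reporter, which marks recently developed cells, the Foxp3-Thy1a reporter, which places Thy1.1 on Foxp3-expressing cells, the Kaa Tcrb transgene and 1 null allele of Tcra. Cells thus carried the same transgenic TCRβ chain and a single functional Tcra allele. A library held between 7625 and 25980 UMIs, and the comparisons of Il2° and of Il15° with wt share the 4 wt libraries. CDR3 of 2 innate-like lineages were rare in the gate, with 89 UMIs of TRAV11 joined to TRAJ18, the pair of invariant NKT cells, and 119 UMIs of TRAV1 joined to TRAJ33, the pair of MAIT cells.

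The TCRα locus has its V segments upstream of a long row of J segments, which are numbered downwards towards the constant region. A first rearrangement on an allele tends to join a V segment close to the J cluster with an upstream J of high number, and later rounds on the same allele replace it with V segments from farther away and J segments farther downstream. The mouse V cluster holds duplicated blocks, and many V segments therefore have near-identical copies marked D or N.

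Chromosome 14 holds all 7 names on its plus strand (GRCm38, GENCODE M21), but they do not form 1 block next to the J cluster. Trav21-dv12 (53875984 to 53876752) ended 278 kb from Traj61, the outermost annotated J segment, Trav19 (53845234 to 53845827) 309 kb, Trav18 (53831105 to 53831827) 323 kb and Trav17 (53806639 to 53807115) 348 kb. Trav16 (53743104 to 53743705) ended at 411 kb, with 3 other names (TRAV3-4, TRAV14-3 and TRAV13-4/DV7) between it and Trav17. The 2 copies, Trav16n (53351028 to 53351621) and Trav16d-dv11 (53047287 to 53047821), ended at 803 and 1107 kb, in the middle of the V cluster. The label J-proximal thus holds for TRAV17, TRAV18, TRAV19 and TRAV21/DV12, is weaker for TRAV16 and does not hold for TRAV16N and TRAV16D/DV11. Because of this, values are given for TRAV17 to TRAV21/DV12, for TRAV16 and for the 2 TRAV16 copies apart, a division chosen after the annotation and the values had been seen.

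The 3′ ends of the V segments, from the codon of the conserved cysteine on, show what each one brings to the CDR3 (GENCODE M21 transcripts). They are printed because the 3 TRAV16 genes have the same end, so that the CDR3 itself cannot tell them apart:
TRAV16, TRAV16N and TRAV16D/DV11: tgtgctatgagagaggg
TRAV17: tgtgcactggaggg
TRAV18: tgtacaggaa
TRAV19: tgcgcagcaggtg
TRAV21/DV12: tgtatcctgagagtag

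Over 350 aligned bases of their transcripts, TRAV16 was 98.6% identical to TRAV16N and 97.4% to TRAV16D/DV11. Of 676 pairs of a CDR3 nucleotide sequence and a J segment under these names, 70 appeared under more than 1 name in different libraries (26.2% of the UMIs under these names), and 1 of 1424 did so within a library. A call of TRAV16, TRAV16N or TRAV16D/DV11 for a single clonotype is therefore uncertain.

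TRAV16N was the most abundant name with 3833 UMIs in 367 clonotypes, followed by TRAV16 with 2636 UMIs in 106, TRAV17 with 1037 UMIs in 230, TRAV16D/DV11 with 547 UMIs in 98, TRAV19 with 535 UMIs in 48 and TRAV21/DV12 with 296 UMIs in 41 clonotypes. TRAV18 was close to absent, with 12 UMIs in 6 clonotypes over 5 libraries. It had 0 of 58501 UMIs in the 4 Il15° libraries together, which allows a share of up to 0.00513%, and wt and Il2° libraries held at most 5 UMIs each. Most clonotypes were rare: 455 of 896 (50.8%) were seen in 1 library, against 52.6% of all in-frame clonotypes.

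The names together took 5.51, 5.49, 3.05 and 3.27% of the in-frame UMIs in the wt libraries 1 to 4, with 95% Wilson intervals of counting error between 0.535 and 0.975 percentage points wide over the 12 libraries. In Il2° libraries they took 4.03, 6.98, 6.06 and 4.73%, and in Il15° libraries 3.54, 4.28, 4.82 and 3.43%. The 3 genotypes overlapped, and the wt libraries alone spanned most of the range. Means were 4.33% ± 1.35 for wt, 5.45% ± 1.32 for Il2° and 4.02% ± 0.651 for Il15° mice (SD, n = 4). No difference passed an exact 2-sided Mann-Whitney test, whose smallest possible p with 4 against 4 libraries is 0.0286: Il2° minus wt was 1.12 percentage points (exact p = 0.343), Il15° minus wt was -0.313 (exact p = 1), and Il15° minus Il2° was -1.43 (exact p = 0.2, adjusted p = 0.514 over the 3 comparisons).

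**Figure D1:**
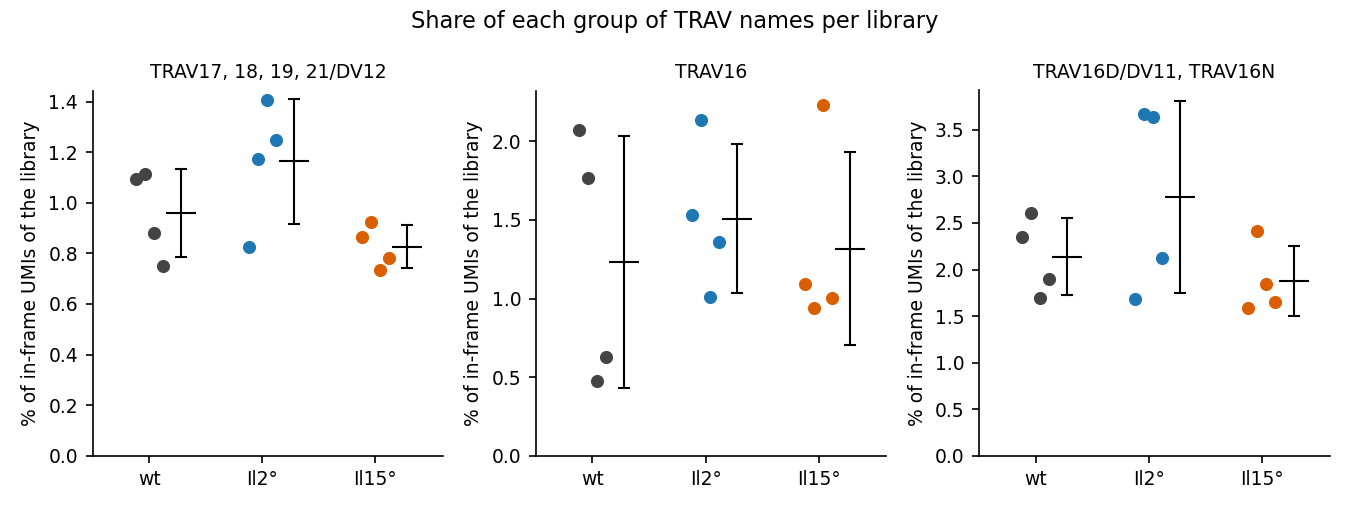
Each point is 1 library, the y axis is the percent of its in-frame UMIs, and the line with bars is the mean ± SD of 4 libraries; the 3 panels have axes of different height. The share of TRAV16 ranges from 0.473 to 2.23% and spreads as widely within wt as between genotypes.

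By name, TRAV16 took 2.07, 1.76, 0.473 and 0.629% in wt, 1.53, 2.14, 1.01 and 1.36% in Il2° and 1.09, 0.941, 2.23 and 1.00% in Il15° libraries. A pair of wt libraries was thus about as high as the highest mutant library and the other pair was the lowest of all 12. TRAV19 took 0.222, 0.323, 0.298 and 0.186% in wt, 0.314, 0.227, 0.495 and 0.699% in Il2° and 0.220, 0.314, 0.0774 and 0.219% in Il15° libraries. Its mean was highest in Il2° mice (0.434% ± 0.209), in which 2 libraries stood above all others.

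With edgeR's quasi-likelihood test on the UMI counts of all TRAV names that had enough counts, 6 of the 7 names were tested and 0 had an adjusted p under 0.05 in any comparison, as with DESeq2. Of all names tested, 1.20% were called for Il2° against wt (1 of 83), 0% for Il15° against wt (0 of 81) and 2.53% for Il15° against Il2° (2 of 79). At an unadjusted p under 0.05, 0 of the 6 names stood out in either comparison with wt, where 14.5% and 8.64% of all names did. Between Il15° and Il2° 1 of the 6 did, against 13.9% of all names: TRAV19, with a log2 fold change of -0.86 ± 0.42 (SE) and an adjusted p of 0.330. TRAV16 differed by 0.03 ± 0.35 on the log2 scale for Il2° against wt and by 0.11 ± 0.41 for Il15° against wt.

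The other V names whose share followed that of these clonotypes most closely over the 12 libraries, among 21 names at 1% or more, were TRAV7D-6 (Spearman rho 0.776), TRAV7-3 (0.706) and TRAV5D-4 (0.615). Shares within a library sum to a whole, and these values are descriptions.

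The J segments separated the names sharply. TRAV17, TRAV18, TRAV19 and TRAV21/DV12 were joined to J segments close to the V cluster, whereas TRAV16 was joined to J segments near the far end. The UMI-weighted mean TRAJ number of TRAV17 to TRAV21/DV12 was 41.9, 44.5, 41.5 and 41.5 in wt, 43.7, 43.9, 43.6 and 44.2 in Il2° and 42.1, 43.6, 46.3 and 42.4 in Il15° libraries. Each of these values lay far above that of all other TRAV names in the same library, which ranged from 22.5 to 24.6. The mean difference was 19.7 ± 1.77 TRAJ numbers (SD, n = 12), in the same direction in 12 of 12 libraries (exact 2-sided sign-flip test over libraries, p = 0.000488, the smallest that 12 libraries can give).

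TRAV16 had a mean TRAJ number of 13.5, 12.96, 14.5 and 13.7 in wt, 12.9, 13.3, 14.7 and 14.1 in Il2° and 12.3, 13.6, 12.5 and 12.9 in Il15° libraries. It was below all other TRAV names in every library, by 10.1 ± 0.941 on average (exact sign-flip p = 0.000488). TRAV16D/DV11 and TRAV16N together were at 21.8 ± 1.77, lower than all other TRAV names by 1.76 (11 of 12 libraries, exact sign-flip p = 0.00244), with 33.4 for TRAV16D/DV11 and 19.9 for TRAV16N. Pooled over the 7 names these opposite shifts cancelled, and the mean TRAJ number of 24.0 differed by 0.444 from the 23.5 of all other TRAV names (exact sign-flip p = 0.371).

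J segments numbered above 40, the part of the J cluster nearest to the V segments, made up 62.9% ± 6.51 of the UMIs of TRAV17 to TRAV21/DV12, against 0.332% ± 0.776 of TRAV16, 5.19% ± 2.92 of its 2 copies and 6.03% ± 0.705 of all other TRAV names (SD, n = 12). The lowest library of TRAV17 to TRAV21/DV12, at 55.0%, was above the highest of all other TRAV names, at 7.40%. TRAJ42 (17.7% ± 7.66), TRAJ52 (13.6% ± 5.31), TRAJ37 (12.3% ± 5.14) and TRAJ57 (12.2% ± 5.56) led in TRAV17 to TRAV21/DV12. In TRAV16, TRAJ12 alone held 79.3% ± 8.05 of the UMIs, and in its copies TRAJ15 held 28.7% ± 8.41. Over the 7 names the 5 most used J segments were TRAJ12 (25.5%), TRAJ15 (15.4%), TRAJ37 (6.40%), TRAJ21 (5.28%) and TRAJ23 (5.12%).

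**Figure D2:**
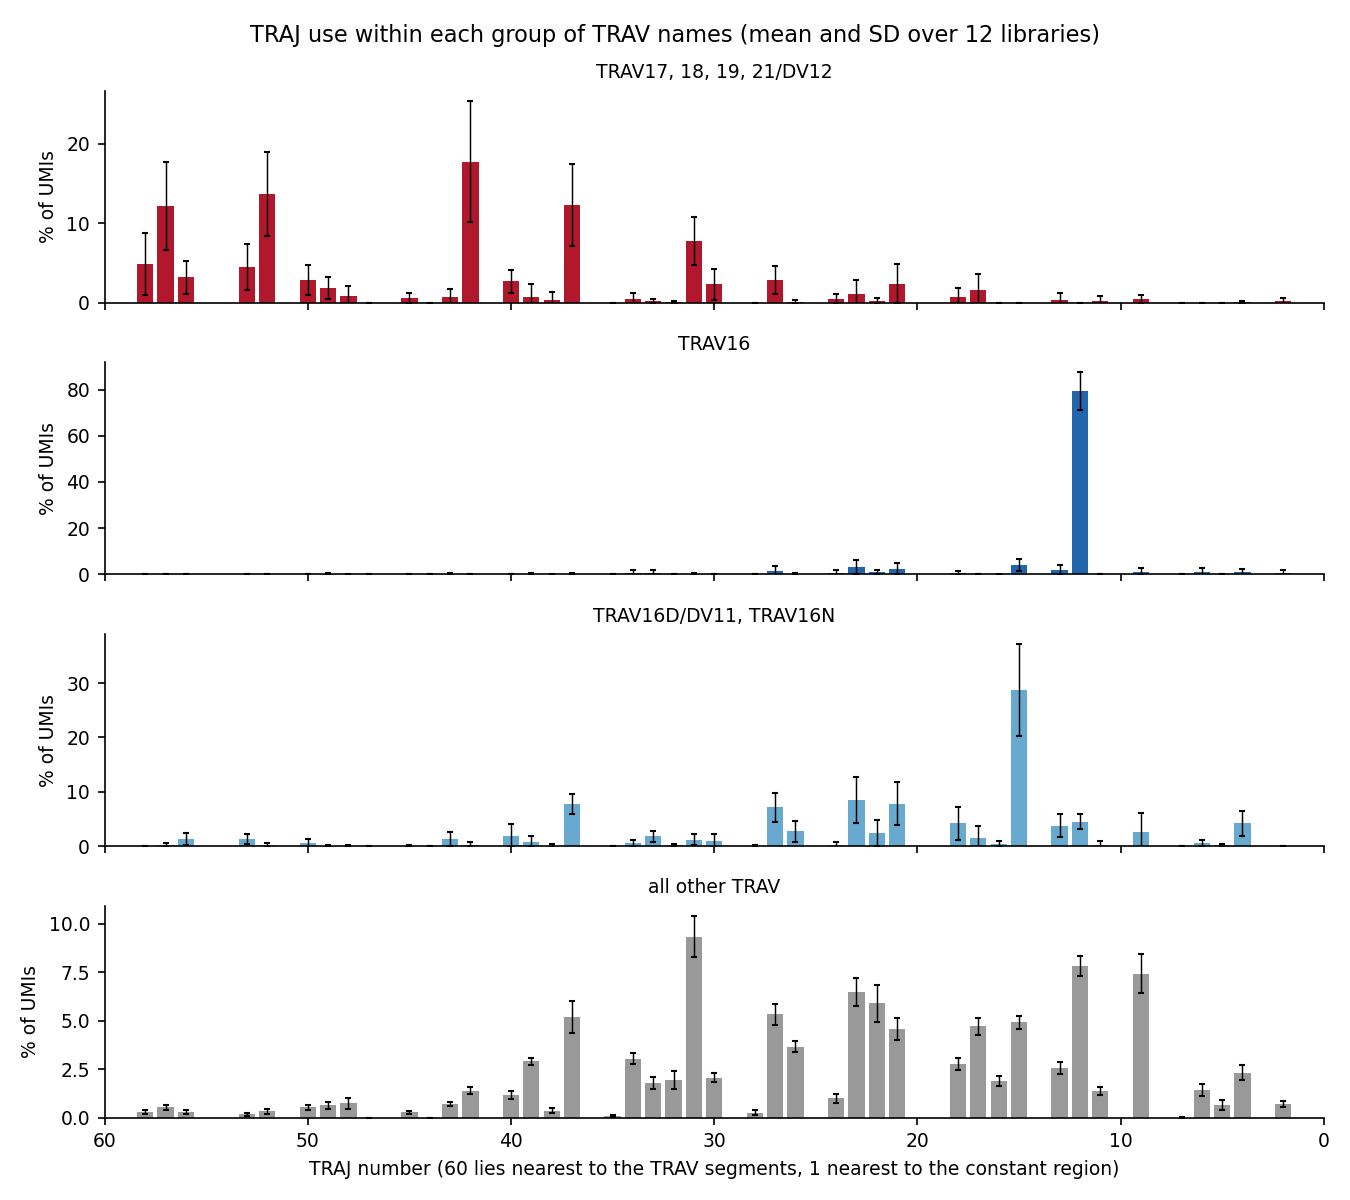
Bars give the mean percent of UMIs on each TRAJ number within a group of names, with the SD over 12 libraries, from TRAJ numbers near the V segments on the left to those near the constant region on the right; the 4 y axes differ. TRAV17 to TRAV21/DV12 lie mainly on the left (62.9% above TRAJ40), and TRAV16 is 1 bar at TRAJ12 (79.3%).

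Distance to the J cluster did not order the names along the whole V cluster. Over the 66 annotated names with 200 UMIs or more the Spearman correlation of distance with mean TRAJ number was -0.138, a description across segments of the same libraries. TRAV19 (45.02), TRAV17 (42.5) and TRAV21/DV12 (41.7) had the highest mean TRAJ numbers of these names but 1. The highest, 45.7, belonged to TRAV13-4/DV7, which lies between TRAV16 and TRAV17. Together, the 3 names in that interval had a mean TRAJ number of 20.9 ± 4.13. TRAV16 ranked at place 64, although 7 names only were annotated closer to the J cluster. The 10 names next upstream of TRAV16 had a mean TRAJ number of 31.1 ± 1.44, and the 10 names farthest from the J cluster 22.1 ± 0.865.

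**Figure D3:**
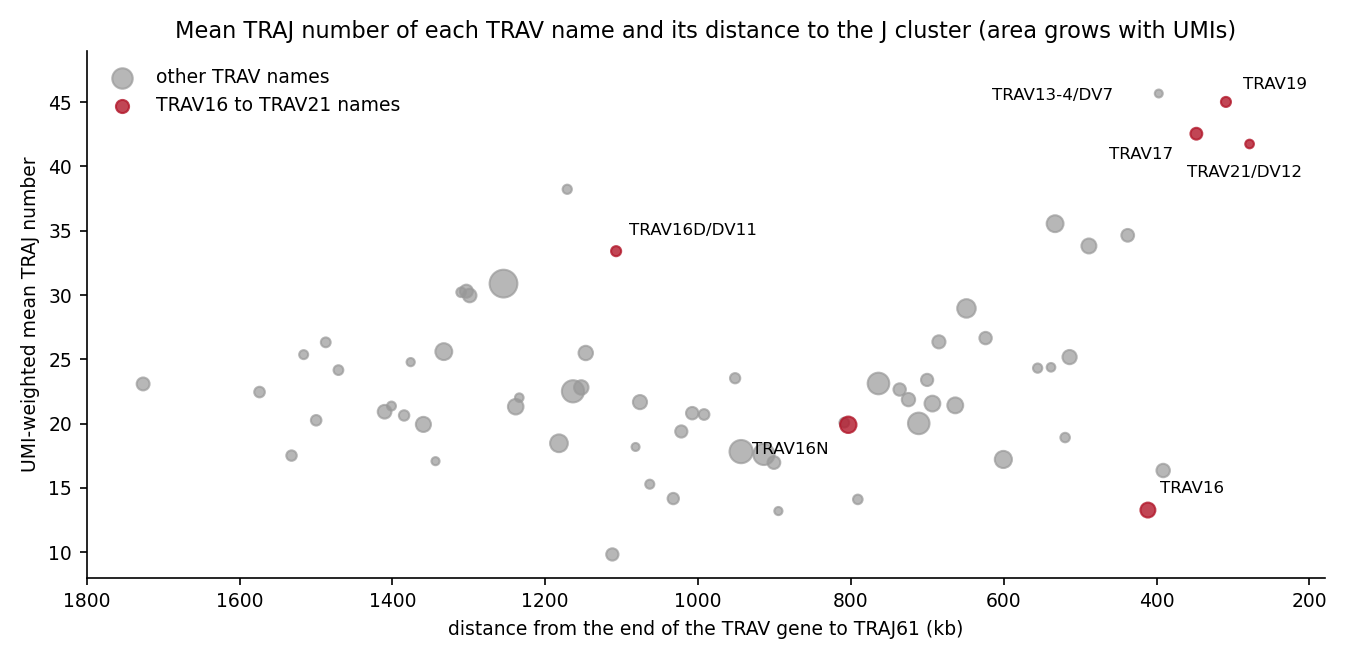
Each point is a TRAV name with 200 UMIs or more, at its distance from Traj61 in kb (x axis, the J cluster to the right) and its UMI-weighted mean TRAJ number over all libraries (y axis, starting at 8). TRAV17, TRAV19 and TRAV21/DV12 lie at the upper right above TRAJ40, TRAV16 at the lower right at 13.3, and TRAV16N and TRAV16D/DV11 in the middle of the cluster.

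These contrasts were also computed without the weight of single clonotypes. With each clonotype counted once, TRAV17 to TRAV21/DV12 had a mean TRAJ number of 43.1 ± 1.73 and TRAV16 one of 18.8 ± 2.99, against 23.8 ± 0.473 in all other TRAV names (exact sign-flip p = 0.000488 for both, adjusted p = 0.00110 over 36 tests of this kind). Counted in this way the 7 names together were above all other TRAV names, at 30.5 against 23.8 (12 of 12 libraries, exact sign-flip p = 0.000488). Without the most abundant clonotype TRAV16 had 18.8 ± 3.60 (lower than all other TRAV names in 10 of 12 libraries, exact sign-flip p = 0.00244).

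CDR3 marked out of frame or with a stop were left out above and are described here apart. The mark depended on the J segment: 99.9% of the UMIs of TRAJ44, 99.8% of TRAJ47, 99.3% of TRAJ7 and all 30 of TRAJ25 carried it, against at most 12.2% for any other J segment. These 4 J segments held 106 of the 198 marked UMIs of TRAV17 to TRAV21/DV12 (53.5%) and 73.4% of the 8333 of all other TRAV names, and whether their clonotypes can make a receptor was not tested. Without them, marked CDR3 of TRAV17 to TRAV21/DV12 (92 UMIs) had a mean TRAJ number of 43.5 ± 10.3, against 29.4 ± 1.03 in all other TRAV names (higher in 11 of 12 libraries, exact sign-flip p = 0.000977), and with them 43.8 ± 6.13 against 30.6 ± 1.53. The low position of TRAV16 was not seen in marked CDR3: its 28 UMIs, in 7 libraries, were at 29.4, against 30.4 in all other TRAV names in the same libraries (higher in 3 of 7, exact sign-flip p = 0.906). Without the 4 J segments 21 of these UMIs remained, in 5 libraries, at a higher mean TRAJ number of 41.7 ± 10.7, which was not tested. TRAV16D/DV11 and TRAV16N, with 140 such UMIs, did not pass the test either (34.5 ± 7.50, exact sign-flip p = 0.111, and p = 0.520 over 10 libraries without the 4 J segments).

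Without the 4 J segments, marked CDR3 made up 4.89% ± 3.65 of the UMIs of TRAV17 to TRAV21/DV12 and 1.22% ± 0.448 of all other TRAV names (higher in 10 of 12 libraries, exact sign-flip p = 0.00342). With them the shares were 9.32% ± 4.10 and 4.37% ± 0.671. TRAV16 (0.728% ± 1.44, exact sign-flip p = 0.173) and its copies (1.07% ± 1.13, exact sign-flip p = 0.700) did not pass this test, although with the 4 J segments both were lower, at 1.04% ± 1.47 (exact sign-flip p = 0.000488) and 3.09% ± 1.08 (exact sign-flip p = 0.000977).

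Between genotypes the J position of the 7 names did not pass the test. Mean TRAJ numbers were 24.95 ± 2.56 for wt, 23.9 ± 1.22 for Il2° and 23.1 ± 1.68 for Il15° mice (SD, n = 4), with exact Mann-Whitney p of 0.686 for Il2° against wt, 0.343 for Il15° against wt and 0.343 for Il15° against Il2°. Counted once per clonotype, Il15° was lower than wt by 2.49 (exact p = 0.0286, the smallest possible), in 1 of several settings tried and without adjustment for them. Weighted by UMIs, Il15° minus wt was -0.666 in all other TRAV names (exact Mann-Whitney p = 0.114). The difference of the 7 names from all other TRAV names did not pass the test for Il15° against wt (exact Mann-Whitney p = 0.886). TRAJ15 took 11.8, 15.4, 8.49 and 13.3% of the UMIs of the 7 names in wt and 16.1, 21.1, 23.2 and 17.7% in Il2° libraries, which did not overlap (19.5% ± 3.22 against 12.3% ± 2.93, exact Mann-Whitney p = 0.0286). This was 1 of 15 tests over 5 J segments and 3 comparisons, and its adjusted p was 0.429. Without its main clonotype, described below, TRAJ15 was at 8.66% ± 2.43 in Il2° and 5.89% ± 1.27 in wt mice (exact p = 0.2).

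The CDR3 of these clonotypes was longer than that of all other TRAV names, with 14.13 against 13.03 residues (difference 1.10 ± 0.105, 12 of 12 libraries, exact sign-flip p = 0.000488). By the V end and J start that the authors deposited, the V part of the CDR3 made up most of this in the TRAV16 genes. It had 17.2 ± 0.321 bases for TRAV16 and 14.1 ± 0.389 for its copies, against 11.3 ± 0.0901 in all other TRAV names (12 of 12 libraries each, exact sign-flip p = 0.000488). The germline end of TRAV16 has 17 bases, so its V part by these bounds includes bases outside the germline. In TRAV17 to TRAV21/DV12 the V part was 11.4 ± 0.539 bases (exact sign-flip p = 0.653), and the J part was longer, 27.3 ± 0.366 against 26.4 ± 0.0636 bases (12 of 12 libraries, exact sign-flip p = 0.000488).

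The number of bases between V and J depended on how they were counted. The deposited bounds differed from the germlines in both directions. In some sequences they gave 0 bases where 1 was in neither germline, and in others 2 bases where 0 were. How the bounds were set is not given in the sources used here. The deposited bounds gave TRAV16 0.440 ± 0.196 such bases and TRAV17 to TRAV21/DV12 2.74 ± 0.519, against 2.08 ± 0.0638 in all other TRAV names (lower in 12 of 12 libraries, exact sign-flip p = 0.000488, and higher in 10 of 12, exact sign-flip p = 0.00195). Counted as the bases found in neither the V nor the J germline, TRAV16 had 1.37 ± 0.232 and was again lower than the 3.05 ± 0.0590 of all other TRAV names (12 of 12 libraries, exact sign-flip p = 0.000488), but TRAV17 to TRAV21/DV12 turned to lower as well, at 2.59 ± 0.325 (10 of 12 libraries, exact sign-flip p = 0.00195). The copies had 2.02 ± 0.335 (lower in 12 of 12, exact sign-flip p = 0.000488).

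By the deposited bounds 74.2% ± 6.33 of the UMIs of TRAV16 had no base between V and J, but 94.3% of these 1972 UMIs held a base found in neither germline, and 87.4% belonged to the most abundant clonotype. By the germlines, junctions without such a base made up 3.57% ± 3.41 of the UMIs of TRAV16, 21.3% ± 4.52 of its copies, 14.5% ± 4.00 of TRAV17 to TRAV21/DV12 and 13.9% ± 0.938 of all other TRAV names. TRAV16 was thus lower than all other TRAV names (12 of 12 libraries, exact sign-flip p = 0.000488) and its copies higher (11 of 12, exact sign-flip p = 0.000977). The most abundant clonotype held 77.8% of the UMIs of TRAV16 on average over the 12 libraries. Its main sequences, printed below, each hold 1 base found in neither germline and so could not count as such junctions. Whether TRAV16 was lower without this clonotype was not tested for either count by the germlines. Among 54 tests of the 3 groups of names between genotypes, all with the deposited bounds, 2 had an exact Mann-Whitney p of 0.0286. One of them, TRAV16 junctions set to 0 bases in Il15° and wt mice, had an exact p of 0.971 when counted by the germlines. In the other, the copies had more bases between V and J in Il15° than in Il2° mice (2.14 ± 0.317 against 1.67 ± 0.137, and 2.30 ± 0.282 against 1.81 ± 0.0937 by the germlines, exact p = 0.0286 for both). Adjusted over the 54 tests the lowest p was 0.741.

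**Figure D4:**
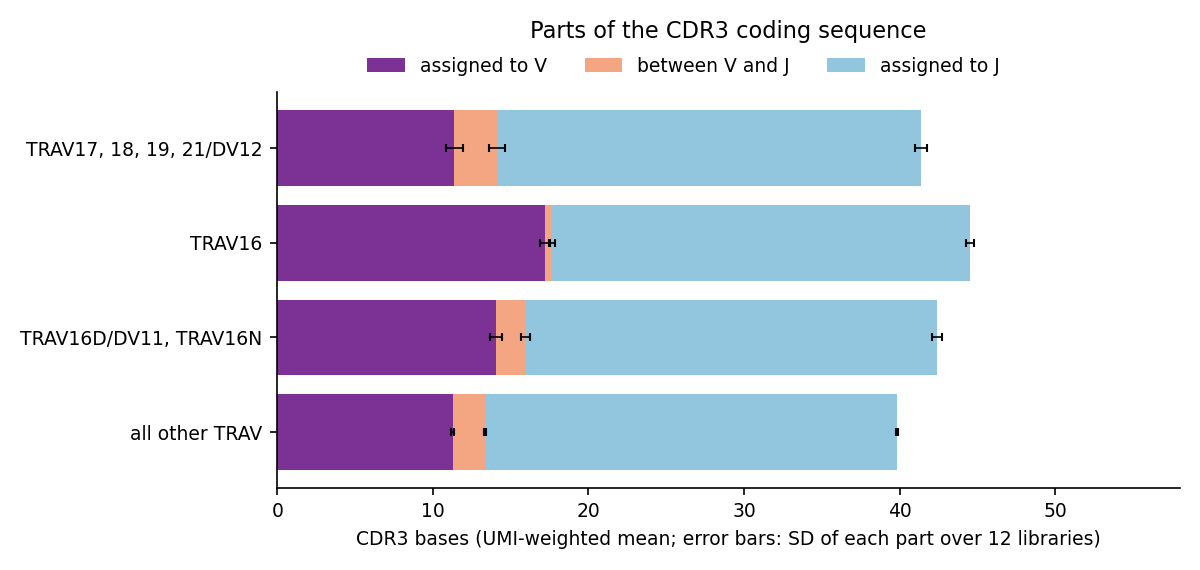
Stacked bars give the UMI-weighted mean number of CDR3 bases assigned to V, placed between V and J, and assigned to J by the deposited bounds, with the SD of each part over 12 libraries. Where V and J overlap by these bounds, the shared bases count in both parts, so a bar can be longer than the CDR3. TRAV16 has the longest V part (17.2 bases) and the shortest part between V and J (0.440), and TRAV17 to TRAV21/DV12 the longest part between V and J (2.74).

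Within the CDR3, leaving out 3 residues at each end, these clonotypes were rich in glycine (28.3 against 18.8% of residues in all other TRAV names), arginine (13.6 against 6.31%) and glutamate (6.92 against 2.29%), and poor in serine (5.03 against 14.2%) and asparagine (8.43 against 14.6%). All of these differences went the same way in 12 of 12 libraries (exact sign-flip p = 0.000488). The germline end of the TRAV16 genes encodes an arginine and a glutamate that lie within this stretch, and closes with gg, the start of a glycine codon. That of TRAV17 encodes a glutamate there and also closes with gg. The end of TRAV19 encodes a glycine in this stretch, and that of TRAV21/DV12 an arginine. How much of the residue differences these germline ends give was not tested. In TRAV17 to TRAV21/DV12 arginine was at 6.70% (exact sign-flip p = 0.247) and asparagine at 14.3% (exact sign-flip p = 0.570), while glutamate was higher, 3.70% (11 of 12 libraries, exact sign-flip p = 0.00244), as was glycine, 24.9% (12 of 12 libraries, exact sign-flip p = 0.000488), and serine lower, 9.39% (12 of 12 libraries, exact sign-flip p = 0.000488). Without the most abundant clonotype the 7 names still had 22.9% glycine and 14.4% arginine.

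Across genotypes few residues of these clonotypes differed. Of the 20 residues, 2 (10%) had an exact Mann-Whitney p of 0.0286 for Il2° against wt, where 20% of the residues of all other TRAV names did, 1 (5%) for Il15° against wt, where 10% did, and 1 (5%) for Il15° against Il2°, where 15% did. Tryptophan took 0.484, 0.404, 0.847 and 0.861% of residues in wt libraries, 0.191, 0.259, 0.199 and 0.216% in Il2° and 0.343, 0.261, 0.0239 and 0.340% in Il15° libraries, so that all 8 mutant libraries were below all 4 wt libraries, which both comparisons share. Valine was at 3.30% ± 0.461 in Il2° and 2.45% ± 0.413 in wt mice, and methionine at 0.668% ± 0.191 in Il15° and 0.299% ± 0.0966 in Il2° mice. None of these had an adjusted p under 0.05 over the 20 residues (0.286 for Il2° against wt and 0.571 for both comparisons with Il15°).

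A few clonotypes carried a large part of the UMIs. They are printed with their nucleotide sequences, because several sequences encode the same amino acids, with capitals for bases found in neither the V nor the J germline. The most abundant clonotype, of TRAV16 and TRAJ12, had 2095 UMIs and 8 sequences, of which the 4 below differ in 1 base at the junction and made up 63.1, 19.05, 13.4 and 3.82% of its UMIs:
TRAV16 and TRAJ12, 1322 UMIs in 12 libraries: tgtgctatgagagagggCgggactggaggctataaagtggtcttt
TRAV16 and TRAJ12, 399 UMIs in 12 libraries: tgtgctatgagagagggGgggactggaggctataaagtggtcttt
TRAV16 and TRAJ12, 281 UMIs in 12 libraries: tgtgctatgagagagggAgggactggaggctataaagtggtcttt
TRAV16 and TRAJ12, 80 UMIs in 6 libraries: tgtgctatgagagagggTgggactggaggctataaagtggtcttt

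In each of these sequences TRAV16 kept its full 17 bases and TRAJ12 gave 27, with 1 base between them. The deposited bounds gave 0 bases between V and J for the sequences with C and G at this place and 1 for those with A and T. The clonotype took 1.73, 1.47, 0.389 and 0.479% of the wt libraries, 1.34, 1.70, 0.598 and 1.12% of the Il2° libraries and 0.863, 0.573, 1.68 and 0.847% of the Il15° libraries. It was present in all 12 libraries and the genotypes overlapped, with means of 1.02% ± 0.683, 1.19% ± 0.462 and 0.992% ± 0.480. It made up 22.8% ± 8.42 of the UMIs of the 7 names, and 21 further UMIs of this CDR3 with TRAJ12 were named TRAV16D/DV11.

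A clonotype of TRAV16N and TRAJ15 came next, with 677 UMIs and 7 sequences. Its most abundant sequence was:
TRAV16N and TRAJ15, 487 UMIs in 12 libraries: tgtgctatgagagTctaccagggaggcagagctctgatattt

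The TRAV16N-TRAJ15 clonotype took 0.363, 0.476, 0.123 and 0.204% of the wt libraries, 0.369, 0.664, 0.824 and 0.535% of the Il2° libraries and 0.220, 0.184, 0.135 and 0.146% of the Il15° libraries. All Il2° libraries were above all Il15° libraries, and wt libraries lay in between and overlapped with both. Its log2 fold change for Il15° against Il2° was -1.91 ± 0.39 (SE, edgeR, unadjusted p = 0.000144), with an adjusted p of 0.0506 that just missed the threshold of 0.05. With DESeq2 the adjusted p was 0.000466. With the copies of V segments merged by name it was 0.00908 by edgeR, over 388 clonotypes tested instead of 352. It was 0.0565 by edgeR with RLE normalization, 0.0585 without a normalization factor and 0.185 with the replicate block. For Il2° against wt the log2 fold change was 1.05 ± 0.42 (edgeR, adjusted p = 0.377), and for Il15° against wt it was -0.79 ± 0.48 (edgeR, adjusted p = 0.991).

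**Figure D5:**
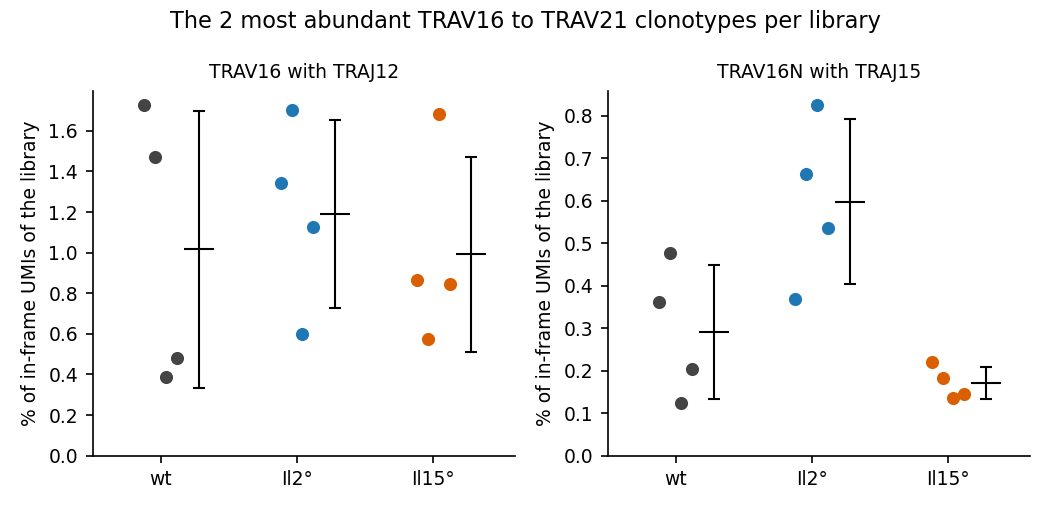
Each point is 1 library and the y axis is the percent of its in-frame UMIs held by the TRAV16 with TRAJ12 or the TRAV16N with TRAJ15 clonotype described here, with the mean ± SD of 4 libraries. The TRAJ12 clonotype overlaps between genotypes (0.389 to 1.73%), and the TRAJ15 clonotype is higher in each Il2° library than in any Il15° library.

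Over all clonotypes with enough counts, 0 were called by edgeR in any comparison. Of the 896 clonotypes of these names 13 were tested for Il2° against wt, 11 for Il15° against wt and 11 for Il15° against Il2°, since the others were too rare. At an unadjusted p under 0.05 there were 2 for Il2° against wt, where 10.2% of the 452 clonotypes tested passed, 0 for Il15° against wt, where 3.86% of 466 did, and 2 for Il15° against Il2°, where 9.94% of 352 did. As a description, the 11 clonotypes had a median log2 fold change of -0.89 for Il15° against Il2°, and all clonotypes tested had one of -0.10. A clonotype could pass the filter through the libraries of 1 genotype alone, which favours a higher estimate in that genotype, so no conclusion is drawn from the direction.

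The other clonotypes with the lowest p were mostly of TRAV16N. The main sequence of 1 of them, with 42 bases, is printed beside that of a clonotype of 36 bases. The latter was not among those with the lowest p (its lowest unadjusted edgeR p was 0.563). Both join the same segments with junctions that need no base outside the germlines and are told apart by length:
TRAV16N and TRAJ21, 42 bases, 98 UMIs in 9 libraries: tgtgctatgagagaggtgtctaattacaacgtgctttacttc
TRAV16N and TRAJ21, 36 bases, 61 UMIs in 10 libraries: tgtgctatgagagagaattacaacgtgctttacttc

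The clonotype of 42 bases took 0.0161, 0.0612, 0 and 0.0359% of the wt libraries and 0.0863, 0.1248, 0.137 and 0.0960% of the Il2° libraries (log2 fold change 1.96 ± 0.80, edgeR, unadjusted p = 0.0261, adjusted p = 0.377). It was chosen for its low p, and 10.2% of the 452 clonotypes tested in this comparison had an unadjusted edgeR p under 0.05. The mean of the clonotype of 42 bases in Il15° mice, 0.0617% ± 0.112, rested on 1 library at 0.229%. A clonotype of TRAV16N and TRAJ4 (129 UMIs) was at 0.0633% ± 0.0659 in wt, 0.104% ± 0.0724 in Il2° and 0.0277% ± 0.0214 in Il15° mice. The TRAV16N-TRAJ37 clonotype (183 UMIs) was at 0.0889% ± 0.0461, 0.1247% ± 0.0858 and 0.0748% ± 0.0233, and that of TRAV21/DV12 and TRAJ31 (80 UMIs) at 0.0495% ± 0.0324, 0.0509% ± 0.0175 and 0.0214% ± 0.0247 in wt, Il2° and Il15° mice. None of these differences passed the edgeR test.

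Among the remaining names a clonotype of TRAV17 and TRAJ52 (118 UMIs) led TRAV17 and was found in all 12 libraries, at 0.0562% ± 0.0267 in wt, 0.0736% ± 0.0114 in Il2° and 0.0575% ± 0.0407 in Il15° mice. It is printed because its main sequence needs no base outside both germlines:
TRAV17 and TRAJ52, 63 UMIs in 12 libraries: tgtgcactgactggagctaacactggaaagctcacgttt
A clonotype of TRAV16D/DV11 and TRAJ15 led its name with 84 UMIs in 4 libraries.

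In a public repertoire, the clonotypes found in all 4 mice of a genotype, there were 28 of the 896 clonotypes in wt (3.13%, against 3.00% of all in-frame clonotypes), 11 in Il2° (1.23% against 2.05%) and 16 in Il15° mice (1.79% against 1.95%). After all libraries were drawn down to the depth of the smallest, the means were 11.95, 9.40 and 9.20 clonotypes, or 1.70, 1.34 and 1.31% of those left, against 2.21, 1.93 and 1.62% of all in-frame clonotypes. The wt share was thus above that of all clonotypes at full depth and below it in this setting and at 2 UMIs or more (2.40% against 2.84%). In all 12 libraries 6 clonotypes were found (0.670% against 0.844%), among them both shown in the plot of clonotype shares, those of TRAV16N and TRAJ37 and of TRAV17 and TRAJ52, and that of TRAV16N and TRAJ21 with 36 bases (83 UMIs). These 6 had 6.33 nucleotide sequences each on average, against 7.28 for the 168 such clonotypes of all other TRAV names.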

How the data were processed

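TCRα libraries of 12 mice were analysed from the tables deposited by the authors. Per the paper's methods and the labels, the authors used pRESTO to make 1 consensus for every UMI read 2 times or more, assembled clones with MiXCR and converted them to VDJtools format (build mm10 in the submitters' processing notes; versions are not given in the sources used here). The deposited counts are UMI counts per sequence without normalization. The deposited fractions, these counts divided by the library total, were not used. The deposited positions of the V end and J start gave the bases between V and J. Negative distances were set to 0, and 13 rows of these names with a J start outside the CDR3 were left out. Bases were also counted as those past the first mismatch with the GENCODE M21 V end and before the longest exact match to the J (96.1% of the UMIs of all other TRAV names and at least 99.8% of these had both germlines).

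Shares, TRAJ numbers, CDR3 lengths and residues were weighted by UMIs within each library. Genotypes were compared by the Mann-Whitney test (exact, 2-sided), as in the paper, and names within libraries with exact sign-flip tests, at p under 0.05. Benjamini-Hochberg values are those named as adjusted p, and all other p are unadjusted. Counts of TRAV names and of clonotypes that reached 5 UMIs in 4 or more of the 8 libraries were tested with edgeR 4.0.16 (TMM, quasi-likelihood, adjusted p under 0.05), with DESeq2 1.42.0 as an alternative (R 4.3.3, Python 3.11.15). Replicate numbers are shared between genotypes but belong to different mice. Intervals cover counting error only.

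On counts simulated after Il2° against wt, edgeR recovered 19 of 20 TRAV names changed 4-fold among 83 (1 false call) and 82 of 200 clonotypes among 452 (0 false calls). After Il15° against wt it recovered 33 of 200 among 466 (1 false call). The names described were chosen with earlier results of these data known. Named were all 7 V names, the 5 clonotypes with the highest mean share, the top clonotype of each name (for TRAV18 this had 2 UMIs), the 6 clonotypes with the lowest edgeR p, the 5 most used J segments and 3 V names of similar share. Of these, 1 clonotype is not reported here. The most abundant clonotype left out, single counting, a 2-UMI minimum, merged copies, other filters and normalizations, the replicate block and each library left out were tried as alternatives.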

Additional observations from a re-analysis of the deposited data

Results flagged for a closer look

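In groups of 4 libraries, 1 library stood apart from the other 3 by Dixon's criterion in 4 of the 51 groups examined, where chance gives about 1 in 20. TRAV16 took 2.23% of UMIs in Il15° replicate 3, against 0.941 to 1.09% in the other Il15° libraries. In the same library TRAV21/DV12 took 0.232%, against 0.118 to 0.130%. The TRAV16N-TRAJ37 clonotype took 0.0202% of wt replicate 1, while the remaining wt libraries had 0.105 to 0.117%. The TRAV16N-TRAJ21 clonotype of 42 bases took 0.229% in Il15° replicate 2, against 0 to 0.0174% in the other Il15° libraries.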

How the results depend on the processing

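The J position against all other TRAV names depended most on the settings. From a difference of 0.444, it became 6.66 with each clonotype counted once, 4.00 without the most abundant clonotype, 2.95 without TRAV16D/DV11 and TRAV16N, 19.7 for TRAV17 to TRAV21/DV12, -0.537 with clonotypes of at least 2 UMIs -4.75 for the UMI-weighted median, 8.60 in CDR3 marked out of frame or with a stop and 10.06 in these without TRAJ7, TRAJ25, TRAJ44 and TRAJ47; the opposite shifts of the names enter each with another weight. The bases between V and J against all other TRAV names, -0.432, became -0.0294 with each clonotype counted once, -0.00146 without the most abundant clonotype and 0.658 for TRAV17 to TRAV21/DV12. Counted as bases in neither germline the last turned to -0.454, and Il15° minus wt over the 7 names became 0.237 (exact p = 0.0286).

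Between genotypes, the J position of Il15° minus wt was -2.49 (exact p = 0.0286) with single counting, and for TRAV17 to TRAV21/DV12 it was 1.22, and 1.48 for Il2° minus wt. The CDR3 length of Il2° minus wt became -0.0139 with single counting and -0.0140 without the most abundant clonotype. The bases between V and J of Il2° minus wt became 0.0682 without the 2 copies and 0.209 for TRAV17 to TRAV21/DV12, and Il15° minus Il2° became 0.352 without the most abundant clonotype (exact p = 0.0286). The causes were not tested. Residues called were 1, 3 and 0 with single counting, 5, 2 and 2 without the most abundant clonotype, and 0, 0 and 0 for TRAV17 to TRAV21/DV12 (Il2° and Il15° against wt, and Il15° against Il2°). For Il2° against wt 1 was called with clonotypes of at least 2 UMIs, with out-of-frame sequences kept or without only the first and last residue, and without the copies 0 were called in both comparisons with wt. Public clonotypes were 15 in wt and 8 in Il15° at 2 UMIs or more and 11.95 and 9.20 after drawing down. In wt, Il2°, Il15° and all 12 libraries they were 14, 5, 8 and 3 without the copies and 13, 4, 6 and 2 for TRAV17 to TRAV21/DV12. TRAV17 to TRAV21/DV12 alone, merged clonotypes, marked CDR3 and the count by germlines were alternatives chosen after seeing the data.

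With 3 against 4 libraries no exact test can pass (smallest p 0.0571), so leaving out libraries gave differences only. They ranged from 0.609 to 1.59 percentage points for the share of Il2° minus wt, -0.739 to 0.0811 for Il15° minus wt (above 0 without wt replicate 1 or 2), -1.86 to 0.116 for the J position of Il2° minus wt (above 0 without wt replicate 3), -1.35 to 0.0394 for Il15° minus Il2° (above 0 without Il15° replicate 3), -0.0207 to 0.0426 residues for the length of Il2° minus wt (below 0 without wt replicate 3 or Il2° replicate 1 or 2) and -0.147 to 0.0273 for its bases between V and J (above 0 without Il2° replicate 1).

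Clonotypes called for Il15° against Il2° went from 0 to 1 (the TRAV16N-TRAJ15 clonotype) with DESeq2, with the filter of 1 UMI in 4 libraries, with merged copies, and without Il2° replicate 1 or Il15° replicate 2, a range of 0 to 1 over libraries left out. Its edgeR adjusted p ranged from 0.0178 to 0.302 over libraries left out. With the replicate block it was 0.185, and 0 names and 0 clonotypes were called in any comparison. Deviations of same-numbered libraries correlated above 0.1 in 2 of 12 pairs (-0.270 to 0.380, highest for replicate 1 of Il15° and wt). Whether same-numbered libraries shared a litter or batch is not given by the labels and was not tested. Residues were not tested with the block or with libraries left out. Rare clonotypes limit the tests: 13 of 896 at most had enough UMIs.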

Other observations

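The names differed in how many of the 43 J segments seen in these libraries they used. TRAV17 used 31, TRAV16D/DV11 30 with 547 UMIs and TRAV16N 29 with 3833 UMIs, whereas TRAV16 used 24 with 2636 UMIs. TRAV19 used 21 and TRAV21/DV12 used 15. In TRAV19, TRAJ42 held 54.0% of the UMIs, and in TRAV17 TRAJ52 held 24.3% and TRAJ37 22.3%. The counts of J segments were not tested.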
